A study of Drosophila melanogaster with 12 samples.

Results

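The elements described here are *copia*, _1731_, *Dm88* and *frogger*, the copia-group long terminal repeat (LTR) retrotransposons among the 126 transposons counted in ovary piRNAs of *Drosophila melanogaster*. They were picked by name alone, 4 of 126, and each was present in all 12 libraries. The libraries hold small RNAs that coprecipitated with the PIWI proteins Aub, Ago3 and Piwi from ovaries of flies aged 2 to 5 d, and the study asked what the arginines at the N-terminus of Aub and their methylation do in the piRNA pathway. In aubRK ovaries these arginines are replaced by lysines in the transgene UAS-3xHA:aub[RK], and in aubWT ovaries the transgene UAS-3xHA:aub[WT] keeps them. Both genotypes carry the heteroallelic aub[QC42/HN2] background and lack endogenous Aub, so that their only Aub is the HA-tagged transgene that nos-Gal4 drives in the germline. csulRM50 (csul[RM50]) is a loss of function mutant of Capsuleen, the fly PRMT5 that methylates these arginines, and was set against w1118 (w[1118]). A further Ago3 library came from y w (y[1] w[1]), which carries endogenous Aub.

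Copia-group elements encode a Gag and a Pol polyprotein between direct LTRs, and *copia* was among the first transposons studied in the fly. An element is copied through an RNA intermediate, so that its sense transcript is both the template for new insertions and the target of the piRNA pathway. Antisense piRNAs, often cut from long precursors of genomic clusters, guide Aub to that transcript, and the cleaved sense strand becomes a piRNA in Ago3. The cycle between the 2 cytoplasmic proteins is known as ping-pong. Piwi acts in the nucleus, where its piRNAs direct silencing of chromatin, and it is also present in the somatic follicle cells, which lack Aub and Ago3. The share of sense reads of an element in each protein is therefore a simple readout of how its piRNAs are divided between the strands.

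The reference strain shows how the 4 elements differ as genomic loads. In the Ensembl annotation of the BDGP6 assembly *copia* had 39 annotated insertions, of which 28 lay within 25 bases of the most frequent length of 5146 bases. Of the 39 *copia* insertions, 17 lay within an annotated gene and 16 of these within introns only. _1731_ had 16 insertions, 5 of them over 4000 bases and 11 under 2000 bases. A _1731_ copy on chromosome 3R (8898777 to 8903424) lies in an intron of *pyd*, the fly ZO-1 junction protein, on the opposite strand, and another on chromosome 3L (25368649 to 25373298) lies in an intron of *lovit*, also on the opposite strand. On chromosome Y a copy of 4605 bases (587537 to 592141) lies in an intron of the dynein gene *kl-2* on its own strand. A copy of 4670 bases on chromosome 2R (1516663 to 1521332) lies within *Maf1* on its own strand and overlaps annotated exons. *Dm88* had 32 insertions, mostly fragments with a median length of 1258.5 bases, and 17 of the 32 stood in a single array on chromosome 3R (12468478 to 12500980), all on the minus strand. One *Dm88* fragment of this array (12476814 to 12477425) lies within the noncoding RNA gene lncRNA:alphagamma-element:CR32865. *frogger* had only 2 annotated insertions, and the longer one on chromosome 2L (22315673 to 22318155, 2483 bases) lies in an intron of *Marf1* on the same strand as the gene. The insertions of the flies sequenced here were not analysed here.

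The level of an element is the sum of its sense and antisense read copies, per 1000000 read copies of the library on all transposons (CPM). The library totals ranged between 1338017 and 47217032 read copies. Only the Ago3 aubWT, Piwi aubWT and second Piwi aubRK libraries carried an 8-nt barcode against PCR duplicates, and the csulRM50 and w1118 libraries were made by another protocol. Each condition had 1 library, except Piwi aubRK with 2, so that differences apart from those in Piwi have no replicate check and carry no p-value. All intervals describe the counting error alone, as PCR copies of 1 molecule are not independent. Read copies per entry, an entry counting identical reads once, were 28.0 in Aub aubRK and 39.1 in Aub aubWT, against at most 8.25 elsewhere. In the barcoded libraries they were 1, as entries there equal read copies and identical reads are not merged further. Counting identical reads once thus changes only the libraries without the barcode. The intervals treat every read copy as separate. Because a CPM is a share of the library, fewer cells of a type and less piRNA per cell cannot be told apart. Counts were not divided by element length, and levels are compared between libraries and not between elements.

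The 4 elements followed separate patterns over the 12 libraries. *copia* was lowest at 1555 CPM in the Ago3 aubWT library, had a median of 3197 CPM and was highest at 8303 CPM in the Aub csulRM50 library. _1731_ is the only one of the 4 with a class in the files, germline dominant, and 91 of the 126 transposons have none. Its level ranged between 1362 CPM in Aub aubRK and 28519.5 CPM in Ago3 csulRM50, with a median of 2491 CPM. This 20.9-fold range of _1731_ was made by the csulRM50 libraries, since 5965 CPM in Ago3 y w was the highest level elsewhere. *Dm88* moved within a 3.06-fold range, with its lowest level of 1774 CPM in Aub csulRM50 and its highest of 5426 CPM in Piwi aubWT. *frogger* stayed between 16.5 CPM in Ago3 csulRM50 and 63.2 CPM in Ago3 aubRK, and had as few as 23 read copies in the second Piwi aubRK library. *copia* and _1731_ varied together (Pearson r = 0.84 of log2(CPM + 1) over the 12 libraries), and so did *Dm88* and *frogger* (r = 0.65). Across these pairs the correlations were negative, between −0.42 for *copia* with *frogger* and −0.62 for _1731_ with *Dm88*. The 12 libraries share genotypes, proteins and protocols, and these correlations are descriptions without a test.

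**Figure D1:**
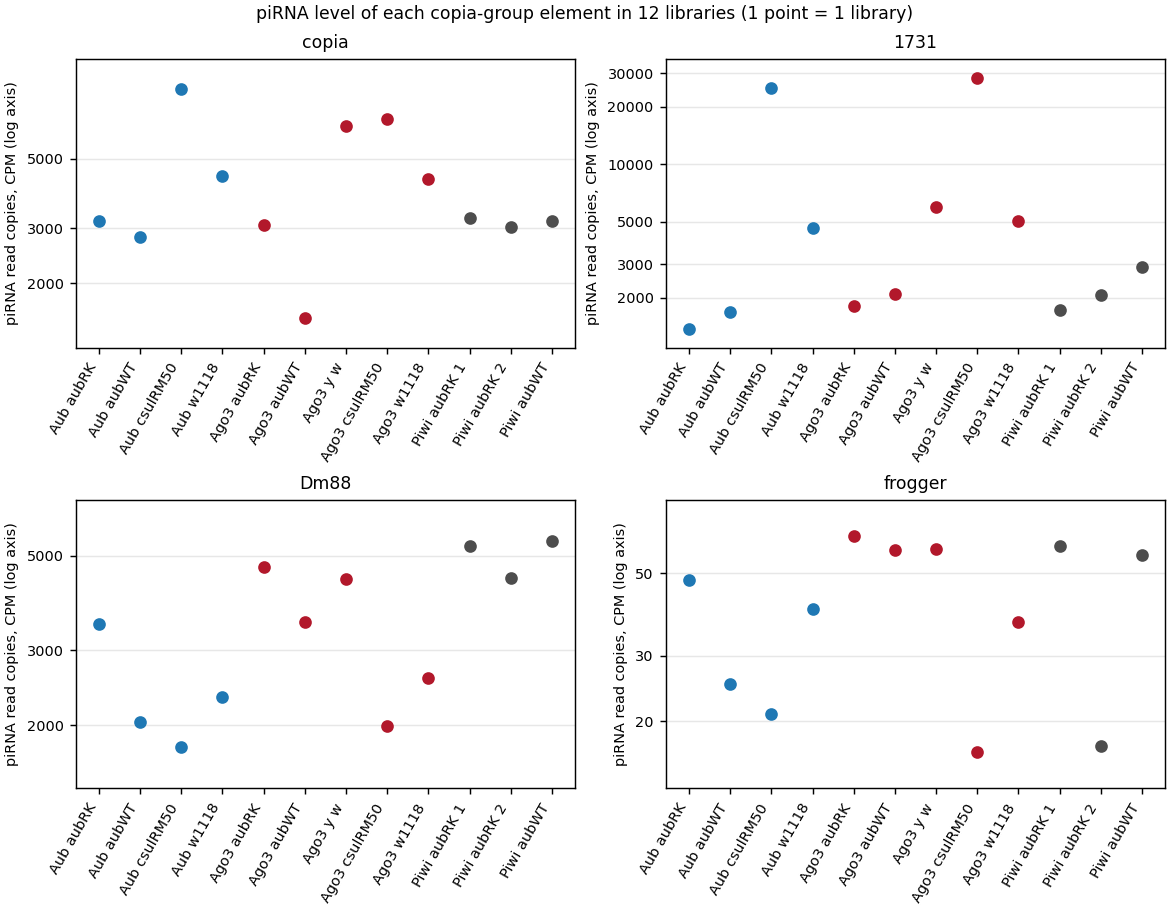
piRNA level of *copia*, _1731_, *Dm88* and *frogger* in each library, in CPM on a log axis, with Aub libraries in blue, Ago3 in red and Piwi in grey. The csulRM50 libraries hold the 2 highest points of *copia* and of _1731_ and the lowest points of *Dm88*.

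Outside the group, the transposons most like *copia* over the 12 libraries were *micropia* (r = 0.89) and *invader3* (r = 0.85), followed by _1731_ itself. For _1731_ they were *Juan*, a non-LTR element, with r = 0.97, *micropia* with r = 0.88 and the telomeric *TART-B* with r = 0.87. The level of *Dm88* ran closest to *ZAM* (r = 0.96), *gypsy10* (r = 0.95) and *gtwin* (r = 0.94), and *ZAM* is known as an element of the somatic follicle cells. For *frogger* the nearest were *Tom1* (r = 0.88), *gypsy9* (r = 0.68) and *Dm88* (r = 0.65). Thus 2 of the 4 elements ran with another member of the group among their 3 nearest, and the 3 nearest of _1731_ and of *Dm88* held none.

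The sense shares of the group were set against those of all transposons in the same library. *copia* and _1731_ exceeded the pooled share of all transposons in 10 of 12 libraries each, *Dm88* in 9 of 12, and *frogger* in 10 of the 11 libraries with at least 50 read copies. The median share over single transposons was exceeded by *copia* in 9 of 12 libraries, by _1731_ in 10, by *Dm88* in only 6 and by *frogger* in 9 of 11. *copia* was 35.2% sense in Piwi aubWT, its lowest share, and 74.0% in Ago3 csulRM50, its highest, with a median of 47.0%. The sense shares of _1731_ lay between 37.9% in Piwi aubWT and 66.1% in Ago3 w1118. Both elements split by stock, with shares above 60% in the 4 csulRM50 and w1118 libraries and below 50% in all 8 others. The protocol, the antibodies and the genetic background differ together between these sets of libraries and cannot be told apart. *Dm88* had the widest span among the 3 abundant elements, from 18.1% in Piwi aubWT to 59.9% in Ago3 csulRM50. *frogger* was mostly sense, with a median of 61.7% over 11 libraries, and its lowest share was 33.7% (Wilson 95% interval 29.7 to 37.9) in Ago3 aubWT.

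**Figure D2:**
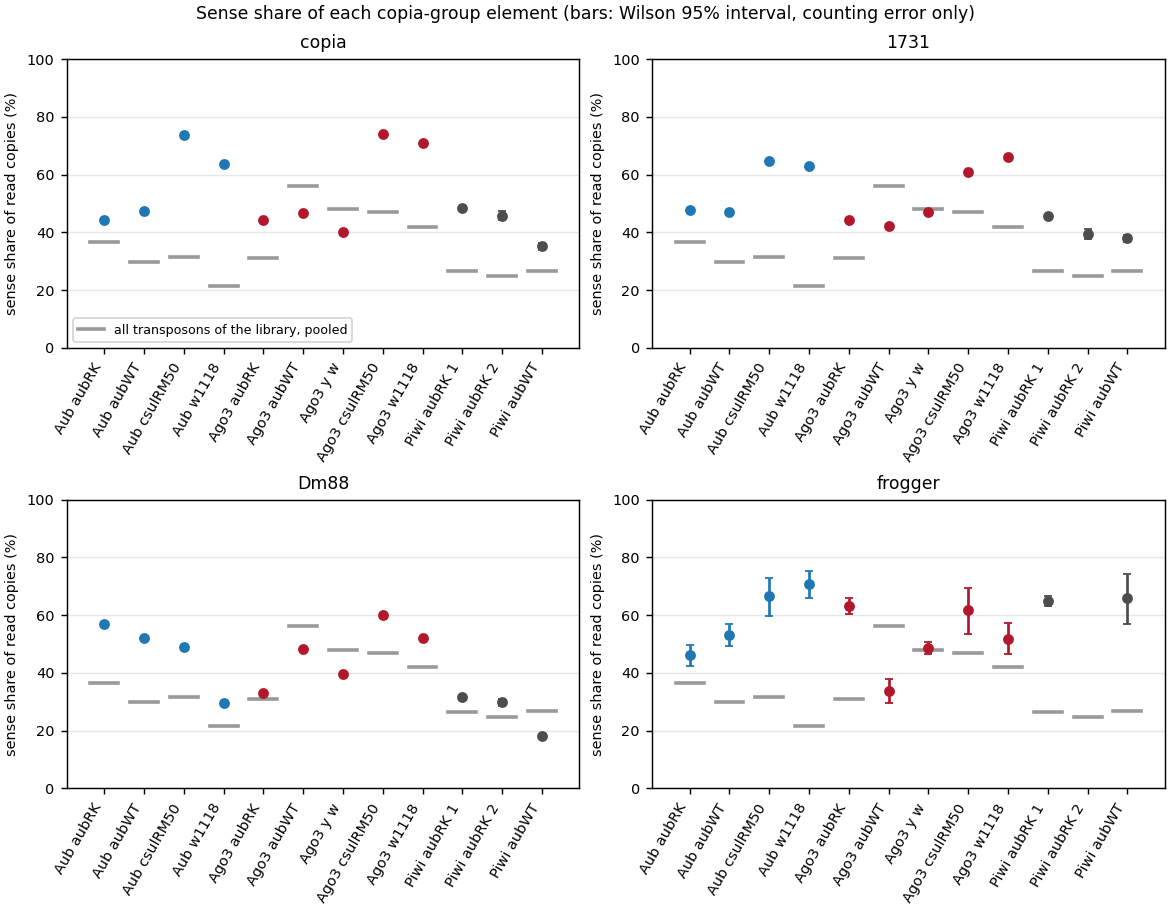
Sense share of read copies for each element and library, with Wilson 95% intervals that cover counting error only, where grey bars give the pooled share of all transposons. *copia* and _1731_ lie above 60% in the csulRM50 and w1118 libraries alone, and *frogger* is left out in the second Piwi aubRK library, where it had 23 read copies.

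To see whether Aub itself carried other amounts of copia-group piRNAs without the arginines, the Aub libraries of aubRK and aubWT were compared. *copia* had 3170.2 CPM in aubRK and 2805 CPM in aubWT, and _1731_ had 1362 CPM in aubRK and 1684 CPM in aubWT. *Dm88* had 3466 CPM in aubRK and 2039 CPM in aubWT, and *frogger* 48.0 CPM in aubRK and 25.3 CPM in aubWT. By library totals *copia*, *Dm88* and *frogger* thus had more piRNAs in aubRK, by 1.13-fold, 1.70-fold and 1.86-fold, and _1731_ fewer. On the log2(CPM + 1) scale the differences were 0.18 for *copia*, −0.31 for _1731_, 0.77 for *Dm88* and 0.90 for *frogger*, and the median over the 123 transposons tested was 0.18. None of the 4 elements passed 2-fold, and 17.9% of all transposons did, 15 higher and 7 lower (with DESeq2 size factors 7 higher and 10 lower). The direction of *copia* turns with DESeq2 size factors (−0.05), while those of the other 3 held under every scaling tried. The *frogger* levels rest on only 35 entries in aubRK and 21 in aubWT with identical reads counted once.

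The strands of these Aub piRNAs stayed close together. *copia* was 44.3% sense in aubRK and 47.3% in aubWT, a difference of −3.06 points (interval −3.63 to −2.49). _1731_ was 47.6% sense in aubRK and 47.0% in aubWT, a difference of 0.54 points whose interval of −0.29 to 1.36 includes 0. *Dm88* was 57.0% sense in aubRK and 52.2% in aubWT. With identical reads counted once *copia* was 47.2% sense in aubRK and 48.8% in aubWT. So counted, _1731_ was 49.1% in aubRK and 46.4% in aubWT, and *Dm88* 53.6% in aubRK and 49.1% in aubWT. For *frogger*, 46.1% in aubRK and 53.1% in aubWT gave −7.08 points (interval −12.3 to −1.82). It had only 35 entries in aubRK and 21 in aubWT with identical reads counted once, too few for a share. None of the 4 moved by more than 10 points, against 26.8% of all transposons with a share, whose median change was 0.16 points.

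For Ago3, the receiving partner of ping-pong, aubRK was compared with aubWT and, because those libraries differ in the barcode, also with y w, which has none. *copia* had 3068 CPM in aubRK, 1555 CPM in aubWT and 6356 CPM in y w. It was thereby 1.97-fold higher in aubRK than in aubWT, just inside the 2-fold limit, and 2.07-fold lower than in y w, just outside it. _1731_ had 1811 CPM in aubRK, 2094 CPM in aubWT and 5965 CPM in y w, which made it 3.29-fold lower in aubRK than in y w. *Dm88* had 4719.8 CPM in aubRK, 3494 CPM in aubWT and 4412 CPM in y w, and *frogger* had 63.2, 57.7 and 58.2 CPM in aubRK, aubWT and y w. The level of *copia* in aubRK thus fell between the levels in the wild-type Aub libraries, and that of _1731_ was lowest in aubRK. Between aubRK and aubWT the differences were 0.98, −0.21, 0.43 and 0.13 on the log2 scale for *copia*, _1731_, *Dm88* and *frogger*, beside a median of 0.78 over all transposons. None of the 4 passed 2-fold there, and 48% of all transposons did, 56 higher and 3 lower. That median was 0.37 with TMM and 0.02 with DESeq2 size factors, which placed 38 transposons higher and 13 lower, and 28 higher and 30 lower. The difference of *copia* kept its direction under every scaling but ranged between 0.20 with DESeq2 size factors and 1.43, past 2-fold, with identical reads counted once. That setting merged reads in aubRK alone, as aubWT carried the barcode, and so sets unlike counts side by side. The differences of _1731_, *Dm88* and *frogger* turn with the scaling. Their lowest and highest values were −0.99 and 0.38 for _1731_, −0.35 and 0.70 for *Dm88* and −0.64 and 0.73 for *frogger*. The highest values all came from counting identical reads once, and _1731_ was below 0 under every other scaling.

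Against y w the log2 differences were −1.05 for *copia* and −1.72 for _1731_, and both kept this direction under every scaling, with values nearest to 0 of −0.75 for *copia* and −1.40 for _1731_. *copia* stayed inside 2-fold with TMM (−0.76), DESeq2 size factors (−0.75), identical reads counted once (−0.82) or totals without *roo* (−0.99). These 2 of 4 elements passed 2-fold, against 28.5% of all transposons, and _1731_ ranked 117 of 123 from the highest. The median of all transposons was −0.16, with 13 higher and 22 lower, and 0.13 with TMM, with 25 higher and 13 lower. *Dm88* (0.10) and *frogger* (0.12) were close to 0, and their sign turned with the scaling. Both comparisons use the same aubRK library.

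**Figure D3:**
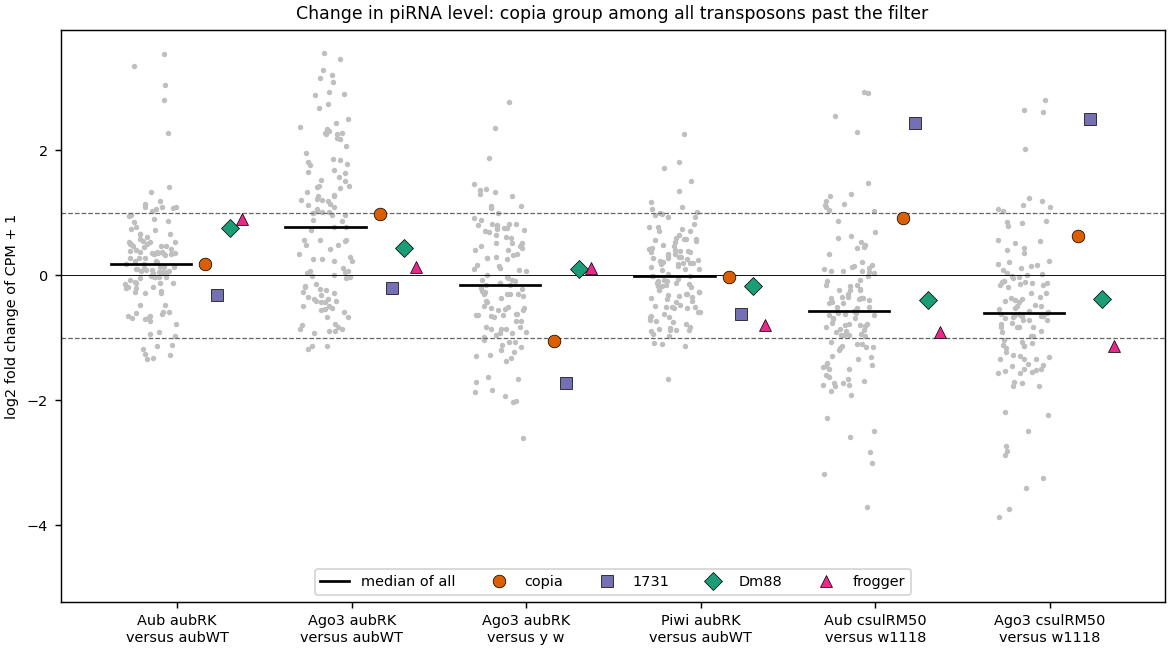
Log2 fold change of CPM + 1 in 6 comparisons, where grey points are single transposons, the black bar is their median and the dashed lines mark 2-fold. _1731_ stands at 2.44 and 2.51 in the csulRM50 comparisons, among the highest transposons, and at −1.72 for Ago3 in aubRK against y w.

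Of 123 transposons 95 were less sense in Ago3 of aubRK than of aubWT, with a median change of −14.4 points. *copia* and _1731_ changed less. *copia* was 44.1% sense in Ago3 of aubRK, 46.7% in aubWT and 40.1% in y w, and _1731_ was 44.3% in aubRK, 42.2% in aubWT and 46.9% in y w. The changes against aubWT were −2.52 points for *copia* (interval −3.46 to −1.59) and 2.09 points for _1731_ (1.19 to 2.99). *Dm88* was 33.2% sense in aubRK, 48.2% in aubWT and 39.7% in y w, and its change of −15.0 points against aubWT was near the median of all. In CPM, antisense *Dm88* piRNAs were at 3153 in aubRK and 1810.0 in aubWT, and sense ones at 1567 in aubRK and 1684 in aubWT.

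*frogger* took the opposite direction. It was 63.2% sense in Ago3 of aubRK, 33.7% in aubWT and 48.5% in y w, a change of 29.5 points against aubWT (interval 24.4 to 34.4), the highest of 123 transposons. These shares rest on 1087 read copies in aubRK, 508 in aubWT and 2064 in y w. Against aubWT 2 of 4 elements moved by more than 10 points, 1 each way, and 69.1% of all transposons did. Against y w 1 of 4 moved so, *frogger* with 14.7 points (ranked 5 of 125), and 62.4% of all did, with a median of −12.2 points. Of the others, *copia* changed by 4.04, _1731_ by −2.63 and *Dm88* by −6.48 points against y w.

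In Piwi, whose aubRK libraries give the only replicate spread, levels of *copia* and *Dm88* differed between the genotypes by no more than that spread. *copia* had 3223 and 3029 CPM in the aubRK libraries and 3170.4 CPM in aubWT. *Dm88* had 5287 and 4443 CPM in aubRK and 5426 CPM in aubWT. Both aubWT values lie within 1 SD of the aubRK means of 3126 ± 137 CPM for *copia* and 4865 ± 597 CPM for *Dm88* (SD, n = 2). _1731_ had 1713 and 2062 CPM in aubRK and 2887 CPM in aubWT, so that both aubRK libraries were below aubWT. *frogger* had 59.3 and 17.2 CPM in aubRK and 56.2 CPM in aubWT, and its aubRK libraries differed from each other by more than either did from aubWT.

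The Piwi comparison was fitted over all 123 transposons with edgeR's quasi-likelihood test, which had 1 residual degree of freedom. _1731_ was called lower in aubRK, with a log2 fold change of −0.61 and a Benjamini-Hochberg adjusted p of 0.0375. The other 3 were not called, with edgeR adjusted p of 0.957 for *copia*, 0.570 for *Dm88* and 0.734 for *frogger*. The test called 30.9% of all transposons, 16 higher and 22 lower, so that 1 of 4 is near the background. With DESeq2 the adjusted p of _1731_ was 0.275. It was 0.0314 with all 7 aubRK and aubWT libraries in the edgeR fit, and 0.00116 in edgeR with TMM factors computed on the 3 Piwi libraries, where _1731_ was at −0.70 in log2 and 13 transposons were called higher and 27 lower. TMM factors computed on all 12 libraries instead placed _1731_ at −0.33. In means of log2(CPM + 1) none of the 4 passed 2-fold, and 11.4% of all transposons did, 10 higher and 4 lower (18 higher and 1 lower with TMM over the 12 libraries). Without the first aubRK library, *frogger* passed it with a log2 fold change of −1.65, and without the second it stood at 0.08. Counted once per identical read, _1731_ differed by −0.10 in log2. This setting merged reads in the first aubRK library alone, as the other Piwi libraries carried the barcode, and so sets unlike counts side by side.

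The strands of *copia* and *Dm88* did differ in Piwi. *copia* was 48.4 and 45.7% sense in the aubRK libraries and 35.2% (interval 34.1 to 36.4) in aubWT, and *Dm88* was 31.6 and 29.9% sense in aubRK and 18.1% (17.4 to 18.9) in aubWT. Both aubRK libraries lay above aubWT for each element. The mean shares in aubRK were 47.0 ± 1.84% for *copia* and 30.7 ± 1.22% for *Dm88* (SD, n = 2), higher by 11.8 and 12.6 points than in aubWT. These 2 of the 3 elements with a share passed 10 points, and 19.8% of all transposons did, with a median change of −1.21 points. The second aubRK library and the aubWT library both carried the barcode, and between these alone the differences were 10.5 points for *copia* and 11.7 for *Dm88*. Sense *Dm88* piRNAs stood at 1670.1 and 1327 CPM in aubRK and 983 CPM in aubWT, while antisense ones were at 3617 and 3117 CPM in aubRK and 4443 CPM in aubWT.

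_1731_ was 45.7 and 39.5% sense in Piwi of aubRK and 37.9% in aubWT, a difference of 4.66 points that is close to the SD of 4.39 points between the aubRK libraries. *frogger* was 64.8% sense in the first aubRK library and 66.1% (interval 56.9 to 74.2) in aubWT. No sense value of *frogger* is listed in the second, where all 23 read copies were antisense. Between the aubRK libraries themselves, 6 of 123 transposons differed over 2-fold and 17 of 118 by more than 10 points, and the levels of *frogger* were 1.73 apart in log2.

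**Figure D4:**
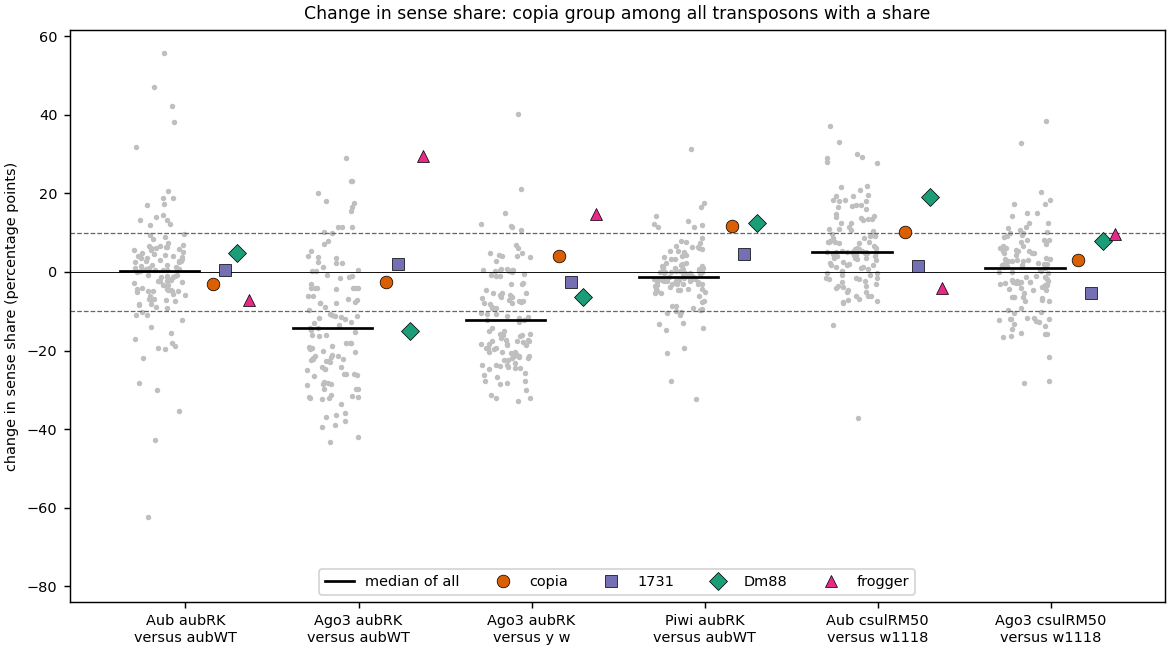
Change in sense share in percentage points for the same 6 comparisons, with grey points for single transposons, black bars for their medians and dashed lines at 10 points either way. *frogger* is at the top in Ago3 of aubRK against aubWT with 29.5 points, and *copia* and *Dm88* are above 10 points in Piwi.

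The largest level difference of the group was between csulRM50 and w1118. _1731_ had 25219.9 CPM in Aub of csulRM50 and 4658 CPM in w1118, and 28519.5 CPM in Ago3 of csulRM50 and 5021 CPM in w1118. It was therefore 5.41-fold higher in Aub and 5.68-fold higher in Ago3, the 4th highest of 123 transposons in each. The log2 differences were 2.44 (counting interval 2.42 to 2.45) and 2.51 (2.49 to 2.52). Under the scalings tried they were at least 1.49 in Aub and 1.55 in Ago3. Both strands took part: sense _1731_ piRNAs differed by 2.47 in Aub and 2.38 in Ago3 on the log2 scale, and antisense ones by 2.38 and 2.72. The sense share of _1731_ was 64.6% in csulRM50 and 63.1% in w1118 for Aub, and 60.7% in csulRM50 and 66.1% in w1118 for Ago3, differences of 1.51 and −5.37 points.

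*copia* was also more abundant in csulRM50, with 8303 CPM against 4383 CPM in w1118 for Aub and 6690.3 CPM against 4299 CPM in w1118 for Ago3. *Dm88* had 1774 CPM in csulRM50 and 2332 CPM in w1118 for Aub, and 1990.0 CPM in csulRM50 and 2580.3 CPM in w1118 for Ago3. *frogger* had 20.9 CPM in csulRM50 and 40.0 CPM in w1118 for Aub, and 16.5 CPM in csulRM50 and 37.1 CPM in w1118 for Ago3. In both proteins *copia* and _1731_ were thus higher in csulRM50 under every scaling and *frogger* lower, while the sign of *Dm88* turned with the scaling. The log2 differences of *copia*, *Dm88* and *frogger* were 0.92, −0.39 and −0.91 in Aub, where the median of all transposons was −0.57. They were 0.64, −0.37 and −1.12 in Ago3, where that median was −0.60. With TMM the medians were −0.19 in Aub and −0.10 in Ago3, and 19 transposons passed 2-fold higher in each and 23 and 19 lower, against 14 higher and 35 lower in Aub and 11 higher and 39 lower in Ago3 by library totals. In Aub 1 of 4 elements passed 2-fold, against 39.8% of all, and in Ago3 2 of 4 did, _1731_ higher and *frogger* lower, against 40.7%. With TMM and with DESeq2 size factors *frogger* in Ago3 was inside 2-fold (−0.65 and −0.64), and *copia* passed it (1.14 with either), as it did in Aub (1.33 and 1.48). With 4 elements these shares are near the background, and _1731_ is the element that stands near the top of the ranking in both.

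Of the sense shares in csulRM50, those of *Dm88* and *copia* in Aub moved most in read copies, but neither passed 10 points when identical reads were counted once. *copia* was 73.7% sense in Aub of csulRM50 and 63.6% in w1118, a difference of 10.1 points, which is 3.98 points with identical reads counted once. *Dm88* was 49.0% in csulRM50 and 29.7% in w1118, a difference of 19.2 points (interval 18.2 to 20.2), and 9.14 points with identical reads counted once. Antisense *Dm88* piRNAs stood at 905 CPM in csulRM50 and 1638 CPM in w1118 in Aub, and sense ones at 868 CPM in csulRM50 and 693 CPM in w1118. *frogger* was 66.7% sense in csulRM50 and 70.8% in w1118, a difference of −4.12 points with an interval of −12.4 to 3.90, and −11.2 points with identical reads counted once. In Aub 2 of 4 passed 10 points, against 33.1% of all transposons, whose median change was 5.21 points. In Ago3 none of the 4 did, against 30.6% of all. There *copia* was 74.0% in csulRM50 and 70.9% in w1118, *Dm88* 59.9% in csulRM50 and 52.0% in w1118, and *frogger* 61.7% in csulRM50 and 51.9% in w1118. The interval of this difference of *frogger* reached 19.1 points and included 0, and with identical reads counted once it turned to −7.54 points.

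Heterotypic ping-pong places sense piRNAs in Ago3, and so the sense share in Ago3 was set against that in Aub within each genotype. In w1118 the median transposon was 22.1 points more sense in Ago3. *Dm88* followed, with 52.0% in Ago3 and 29.7% in Aub, 22.2 points apart, or 11.3 points with identical reads counted once. *copia*, with 70.9% in Ago3 and 63.6% in Aub, differed by 7.33 points, and _1731_, with 66.1% in Ago3 and 63.1% in Aub, by 3.04 points. *frogger* was less sense in Ago3, 51.9% against 70.8% in Aub (−18.9 points, interval −25.8 to −11.6), ranked 119 of 121. Hence 2 of 4 were over 10 points apart, 1 each way, against 78.5% of all transposons.

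In csulRM50 *Dm88* was the only one of the 4 more than 10 points apart, 59.9% in Ago3 and 49.0% in Aub, against 62% of all transposons and a median of 13.0 points. With identical reads counted once *Dm88* was 4.86 points apart and *frogger*, at −10.9 points, was the only one past 10. *copia* was 74.0% in Ago3 and 73.7% in Aub there, a difference of 0.28 points whose interval of −0.19 to 0.76 includes 0, and _1731_ differed by −3.84 points. In aubWT *copia* was 46.7% in Ago3 and 47.3% in Aub, and again the interval of the difference, −1.59 to 0.23 points, includes 0. _1731_ differed by −4.83 and *Dm88* by −3.99 points in aubWT, and *frogger* by −19.5 points, with 33.7% in Ago3 and 53.1% in Aub. Thus 1 of 4 was over 10 points apart, against 59.3% of all transposons and a median of 7.71 points.

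In aubRK, where the median transposon was −3.13 points from Aub and 39.8% were over 10 points apart, *Dm88* and *frogger* passed the limit in opposite directions. *Dm88* was 33.2% sense in Ago3 and 57.0% in Aub, −23.8 points (interval −24.4 to −23.3), which ranked 120 of 123. *frogger* was 63.2% in Ago3 and 46.1% in Aub, 17.1 points (12.5 to 21.7), ranked 8. Its 723 read copies in Aub were only 35 entries with identical reads counted once, below the 50 needed for a share. The order of Ago3 and Aub for *Dm88* was thus opposite in aubRK and in w1118. In aubWT, at −3.99 points, it was already that of aubRK. *copia* differed by −0.14 points in aubRK and _1731_ by −3.28 points. Over the 4 genotypes *copia* and _1731_ were never more than 10 points apart between Ago3 and Aub, reaching 7.33 points for *copia* and −4.83 points for _1731_.

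**Figure D5:**
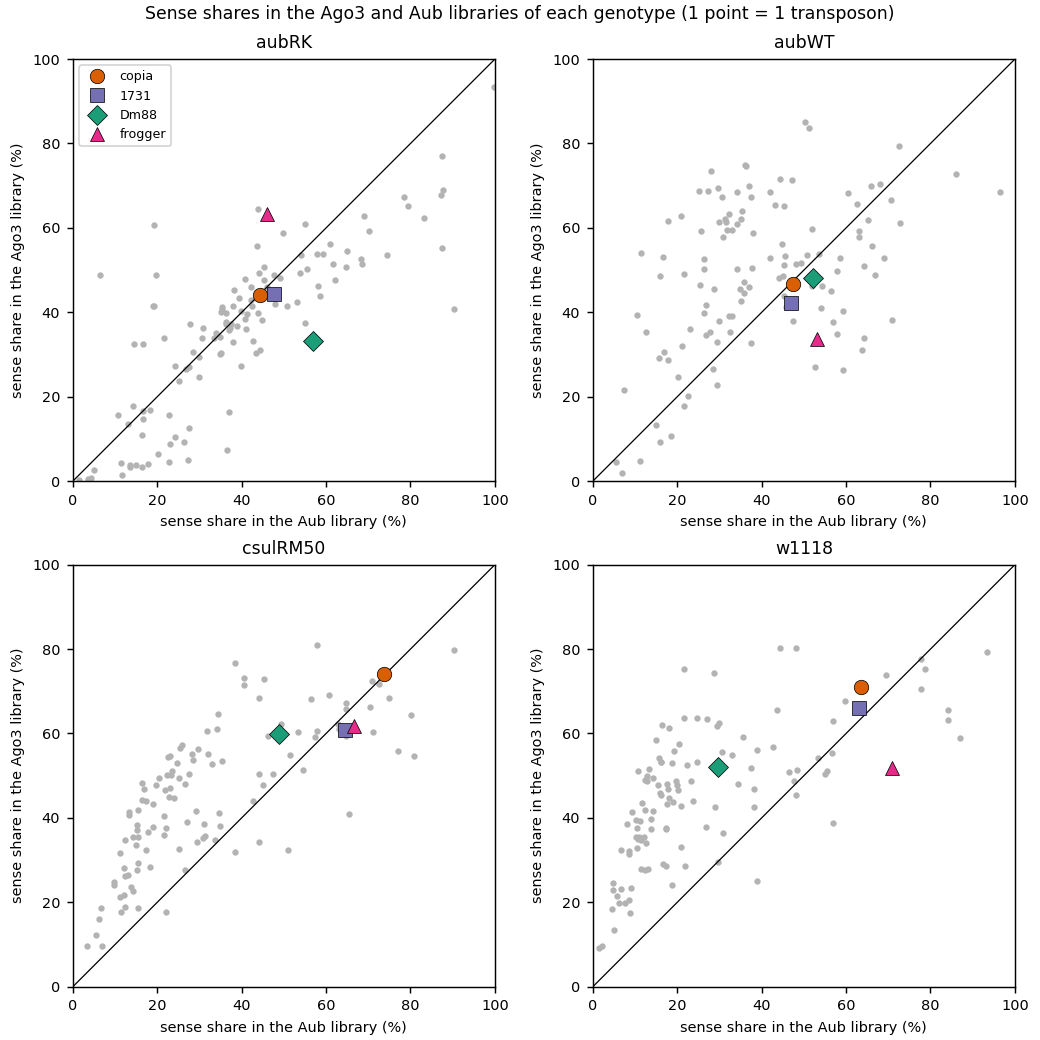
Sense share in the Ago3 library (vertical) and the Aub library (horizontal) of the same genotype, in percent, where grey points are single transposons and the line marks equal shares. *copia* and _1731_ lie near the line in all 4 genotypes. *Dm88* is above it in csulRM50 and w1118 and below it in aubRK and, less far, in aubWT.

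Partial lists of other LTR retrotransposons, 18 of the gypsy and 5 of the Bel-Pao superfamily, give a setting for these values. Their medians describe the listed elements and not whole superfamilies. Of the 18 listed gypsy elements, 16 were over 10 points more sense in Ago3 than in Aub in w1118, with a median of 26.5 points. So were 3 of the 5 listed Bel-Pao elements, with a median of 23.3 points. Outside the lists elements went either way there, with *gypsy2* at 49.4% in Ago3 and 14.3% in Aub. By contrast *gypsy12* was at 65.5% in Ago3 and 84.2% in Aub, and *diver2* at 58.9% in Ago3 and 87.0% in Aub. In csulRM50 the medians were 21.1 points for the listed gypsy and 18.6 points for the listed Bel-Pao elements. In aubWT they were 8.65 points for gypsy and 22.8 points for Bel-Pao elements, and in aubRK −10.4 and −0.04 points. Against aubWT, Ago3 of aubRK had 11 of 18 gypsy elements over 2-fold higher and none lower, with a median log2 of 1.75. By the same totals 0 of 5 Bel-Pao elements passed 2-fold and their median was −0.04. Among all 123 transposons 56 were higher and 3 lower, with a median of 0.78. With DESeq2 size factors 28 of all were higher and 30 lower, with a median of 0.02. The sense shares of the same libraries changed by medians of −22.1 points for the listed gypsy and −18.1 points for the listed Bel-Pao elements. Outside the lists *gypsy2* changed by −16.2 points and *diver2* by 23.2 points. In csulRM50 the median log2 differences against w1118 were −0.02 for gypsy and 0.12 for Bel-Pao elements in Aub, and −0.15 and 0.14 in Ago3.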

How the data were processed

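The 12 libraries hold piRNAs of immunoprecipitated Aub, Ago3 and Piwi under 11 conditions, grouped by the sample labels. The authors trimmed adaptors with Cutadapt (version 2.3 in the submitters' processing notes), removed PCR duplicates in the 3 barcoded libraries, aligned reads end to end with STAR (2.4.2a in the same notes) to consensus transposons, and deposited unnormalized whole-number counts for the sense and antisense orientation of each transposon. Reads with equally good matches on several consensus sequences can count on more than 1 of them. The deposited counts are read copies and, as an alternative, entries that count identical reads once. In the 3 barcoded libraries entries equal read copies. Both meanings were taken from column names and values. The class of a transposon is that in the files.

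CPM were computed with the transposon total of a library as its size. Levels were compared as log2(CPM + 1) for 123 transposons that averaged 100 counts or more, among them all 4 members. Limits for counting were 2-fold and 10 percentage points. Sense shares needed 50 counts in both libraries. They carry Wilson 95% intervals, with Newcombe intervals for differences and conditional binomial intervals for folds. The smallest level the depth can show, 3 counts, was at most 2.24 CPM. For Piwi the mean of both aubRK libraries was used, and edgeR 4.0.16 (R 4.3.3) was fitted to the counts with library totals. Calls had an adjusted p under 0.05. No label says that the Piwi aubRK libraries came from separate dissections, so their spread may be technical. The edgeR fit was tested on simulated counts.

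Scalings tried for directions were library totals, TMM, DESeq2 1.42.0 size factors, entries in place of read copies and totals without *roo*, and filter, pseudocount, strand and minimum count were also varied. The members, lists of 18 gypsy and 5 Bel-Pao elements, and limits were chosen with earlier results of these data known. All members were named in each comparison, with the 3 transposons of highest Pearson correlation to each. Insertions were read from the Ensembl BDGP6 annotation, while the authors used dm3, and no coordinates were combined.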

Additional observations from a re-analysis of the deposited data

Results flagged for a closer look

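The sense share of *Dm88* took opposite directions in aubRK in Ago3 and in Piwi. In Ago3 the difference between aubRK and aubWT was −15.0 points, and in Piwi it was 12.6 points, with both aubRK libraries above aubWT. The difference between the proteins was not tested, since Ago3 had 1 library per genotype. The barcode was absent from Ago3 aubRK and from the first Piwi aubRK library and present in both aubWT libraries, and its part in the opposite directions was not tested. Without the first Piwi aubRK library the Piwi difference was 11.7 points.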

How the results depend on the processing

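Numbers of elements past a limit are of 4. Past 2-fold, Aub in aubRK against aubWT had 0, and 1 (*frogger*) with identical reads counted once or antisense counts alone. Ago3 in aubRK against aubWT had 0, and 1 with identical reads counted once (*copia*) or antisense counts alone (*frogger*) and 2 (*copia*, *frogger*) with sense counts alone. Here counting identical reads once changed the aubRK library alone. Ago3 in aubRK against y w had 2, and 1 (_1731_) with TMM, DESeq2 size factors, identical reads counted once or totals without *roo*, while sense counts alone gave _1731_ lower and *frogger* higher (1.11) in place of *copia*. Piwi had 0, 1 (*frogger*) with sense counts alone, and between 0 and 1 when leaving out an aubRK library. Aub in csulRM50 had 1, and 2 with TMM or DESeq2 size factors (adding *copia*) or sense counts alone (adding *frogger*). Ago3 in csulRM50 had 2, and 1 (_1731_) with a filter of 1000 counts, which *frogger* does not pass, a pseudocount of 10 or identical reads counted once. Past 10 points, with identical reads counted once, Aub in csulRM50 lost *copia* and *Dm88* and gained *frogger*, 1 in place of 2. There Ago3 against Aub had 1 in place of 2 in aubRK and 0 in place of 1 in aubWT, since *frogger* had only 35 and 21 entries in these Aub libraries and no share. With a minimum of 500 counts Ago3 against Aub in w1118 had 1 in place of 2, since *frogger* then has no share. Elsewhere the cause was not tested. DESeq2 called 18 transposons in Piwi (33 at an unadjusted p under 0.05), against 38 with edgeR (45), and not _1731_ (log2 fold change −0.61, DESeq2 adjusted p of 0.275). Of the single values of the members, 207 stayed within their error, 138 moved beyond it and 1 lost its call, and none that had been called changed sign. The 207 include values under other filters or minimum counts, which only keep or drop an element and so could not move them.

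No paired analysis was possible, because each group except Piwi aubRK had 1 library and no label links libraries of different groups as pairs. Counting error limits *frogger* most, with intervals of its sense share reaching 8.64 points to either side, against at most 1.82 points for the other 3. The spread between libraries is known for Piwi aubRK only, and the fit that gives the p-values has 1 residual degree of freedom.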
